A study of Mus musculus with 8 samples.

Results

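The comparison set CD4 single-positive Foxp3- thymocytes of E protein-deficient mice (KO Foxp3-, 2 arrays) against CD4+Foxp3+ thymocytes of wild-type mice (WT Foxp3+, 2 arrays). These 4 arrays, of 8 in the study, were picked out by their titles. The groups and the gene lists were chosen with earlier results of these data known. The KO mice carried floxed alleles of E2A and HEB, ER-Cre and a Foxp3 knock-in, labelled E2Af/f HEBf/f ER-Cre Foxp3KI. The WT mice are labelled Foxp3KI. In ER-Cre the recombinase is fused to an oestrogen receptor domain, so that tamoxifen switches it on; the labels do not give the promoter that drives it. Per the labels, oral tamoxifen was given at 3 mg a dose in 4 doses spread over 10 days, to animals described as wild-type or floxed; their ages are not given. KO Foxp3+ and WT Foxp3- thymocytes, 2 arrays each, made up the rest of the study. RNA was hybridised to an Illumina bead array, where the intensity of a probe reports the level of its transcript. The question addressed is what still separated Foxp3- cells of the KO mice from normal Foxp3+ cells. The extent to which E2A and HEB protein was lost was not measured. The 2 groups differed in genotype and in sorted fraction at once, and these cannot be told apart within this pair of groups, so values of the remaining groups are given beside many of the results. The labels do not say whether the 2 arrays of a group came from separate mice, so p-values measure only the spread between these samples, which may be technical.

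E proteins are basic helix-loop-helix transcription factors that bind the E-box, CANNTG, as dimers. E2A (encoded by Tcf3) and HEB (encoded by Tcf12) act through much of thymocyte development, where they support T cell receptor gene rearrangement and hold cells at developmental checkpoints. Id proteins, such as Id2 and Id3, lack the DNA-binding part and block E proteins by pairing with them. Foxp3 is the transcription factor that defines regulatory T cells, which restrain immune responses and arise in part in the thymus.

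Between 11462 and 12540 of 25697 probes were detected per array (detection p under 0.05), and mean intensity before normalization lay between 358.9 and 433.5. Values below are background-corrected, quantile-normalized log2 intensities, and a difference is KO Foxp3- minus WT Foxp3+ with its standard error (SE). Replicates correlated across probes at r = 0.994 in KO Foxp3- and 0.995 in WT Foxp3+ cells, with 17 and 14 of 13526 probes at least 2-fold apart. In KO Foxp3+ cells 158 probes were that far apart, and in WT Foxp3- cells 1. The CD4 T cell markers Cd4, Cd3e, Cd3d and Cd3g were detected on all arrays and none was called different. Cd8b1, a chain of the CD8 co-receptor, was detected on all arrays too and was not called. The 2 arrays of each group sat side by side on 1 chip, so chip position and group cannot be told apart. The number of arrays limits the precision throughout.

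The comparison called 4327 of 13526 probes (32%) at a limma adjusted p under 0.05, 2255 higher (16.7%) and 2072 lower (15.3%) in KO Foxp3- cells, and 5822 had an unadjusted p under 0.05. Without any 1 of the 4 arrays compared, 2577 to 2796 probes were called. These are the shares against which counts over gene lists should be read. With 1 probe per gene, 1588 of 9137 genes rose (17.4%) and 1383 fell (15.1%). With cyclic loess scaling lower calls led, with 1815 probes higher and 2395 lower. Among genes at least 2-fold apart there were 284 higher (3.11%) and 500 lower (5.47%), and at least 4-fold apart 56 higher (0.613%) and 141 lower (1.54%). The median difference over all genes tested was 0.06 on the log2 scale. The largest measured rises, by the naming rule, were Gdpd3, Pdlim4, Klrd1, Xcl1, Sema4a, Fasl, Dapl1, Tdrp, Tgfbr3, Lypd6b, St3gal6 and Igfbp4. The largest measured falls were S100a9, S100a8, Lyz1, Il2ra, Lyz2, Gm4956, Klrg1, Alox5ap, Vcam1, Cd83, Fcer1g and C1qc. The largest rises from below detection in WT Foxp3+ cells were Klra16, Dmbt1, Lrrc75b, Sostdc1, Adgrg3 and Cdh1. The largest falls to below detection in KO Foxp3- cells were Slc40a1, Foxp3, Lcn2, Chil3, Il1b and Retnlg. Lrrc75b and Sostdc1 passed the filter on dim probes (detection on 2 or more arrays) only through KO Foxp3- cells. Retnlg passed it only through WT Foxp3+ cells. For these genes passing largely fixed the direction.

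**Figure D1:**
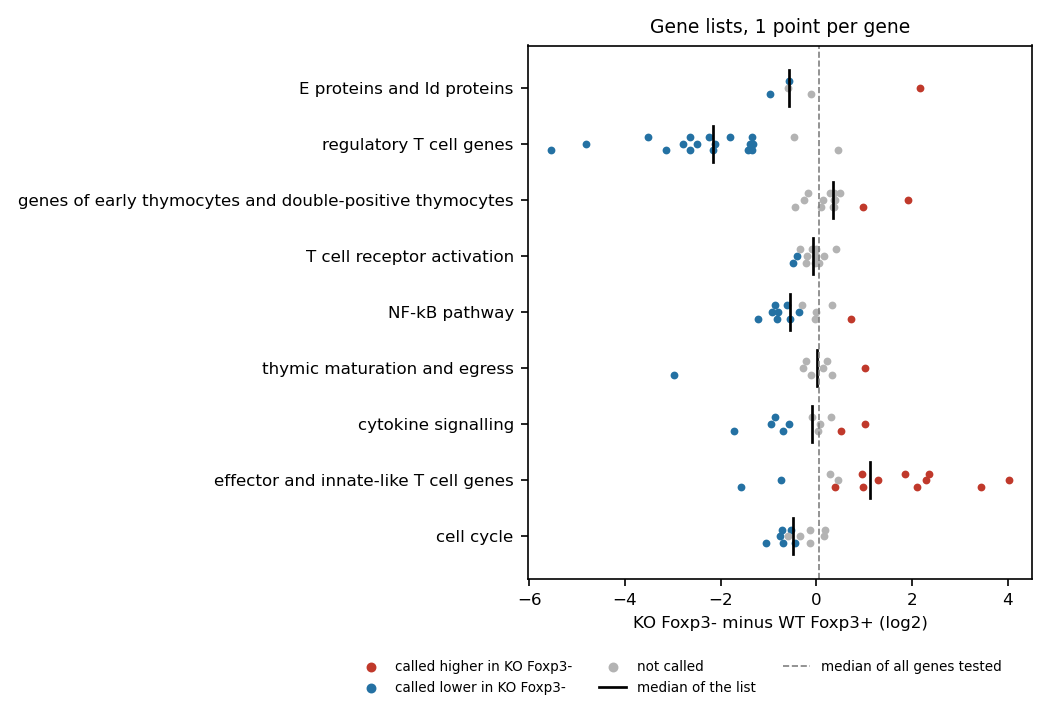
Differences (KO Foxp3- minus WT Foxp3+, log2) of the genes of each list that passed the filter on dim probes, 1 point per gene, coloured by limma call, with the list median as a black bar and the median of all genes tested as a dashed line. The regulatory T cell list lies to the left (median -2.16) and the effector and innate-like T cell list mostly to the right (median 1.13).

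The targeted genes were examined first. Tcf12 (HEB) measured 6.86 and 6.75 in KO Foxp3- cells, against 7.29 and 7.48 in WT Foxp3+ cells, and the groups did not overlap. The difference was -0.58 ± 0.13 (SE, limma adjusted p = 0.0102). Tcf12 was also lower in KO Foxp3+ cells, at 6.44 and 6.22, against 7.67 and 7.57 in WT Foxp3- cells (-1.29, limma adjusted p = 0.000173). Its call was lost without WT Foxp3+ replicate 2 (limma adjusted p = 0.0699) and without KO Foxp3- replicate 2 (limma adjusted p = 0.063). Where the Tcf12 probe lies relative to the floxed exons is not given in the sources used here, so a residual signal says nothing of the remaining protein. Tcf3 (E2A) was not analysed here. Tcf4, which encodes the third E protein, had 7.42 and 7.69 in KO Foxp3- cells, against 8.30 and 8.01 in WT Foxp3+ cells, and was not called (-0.60 ± 0.28, limma adjusted p = 0.141).

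The Id genes moved in opposite ways. Id2 measured 10.41 on both KO Foxp3- arrays, against 8.29 and 8.19 in WT Foxp3+ cells, a rise of 2.17 ± 0.17 (limma adjusted p = 7.55e-05). WT Foxp3- cells had Id2 at 9.77 and 9.95, near the KO Foxp3- level (KO Foxp3- minus WT Foxp3-, 0.55, limma adjusted p = 0.0569), and KO Foxp3+ cells had 8.75 and 8.21. Id3, itself induced by T cell receptor signals and by E proteins, measured 7.58 and 7.39 in KO Foxp3- cells, against 8.14 and 8.76 in WT Foxp3+ cells (-0.97 ± 0.19, limma adjusted p = 0.00682). Id3 was lower in both KO groups than in both WT groups, with 6.58 and 6.66 in KO Foxp3+ cells and 8.59 and 8.70 in WT Foxp3- cells. Id1 was detected on no KO Foxp3- array and was not called.

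E-boxes were looked for in the promoters of genes that separated the groups. The motifs were CAGCTG, which reads the same on both strands, and CAGGTG with its complement CACCTG, the E-boxes that E proteins are best known to bind; no matches printed overlap. The windows below are RefSeq sequences of GRCm38.p6, from 250 bases before to 50 after the annotated start, with motif matches in capitals. They are shown for Id2 and the cytokine gene Ifng (both higher), for Ctla4 (lower), and for Gdpd3, the gene with the largest rise, whose window held no match. Ifng lies at chr10:118440796-118441095 (plus strand), Id2 at chr12:25096043-25096342 (minus strand), Ctla4 at chr1:60908775-60909074 (plus strand) and Gdpd3 at chr7:126766164-126766463 (plus strand).
Ifng: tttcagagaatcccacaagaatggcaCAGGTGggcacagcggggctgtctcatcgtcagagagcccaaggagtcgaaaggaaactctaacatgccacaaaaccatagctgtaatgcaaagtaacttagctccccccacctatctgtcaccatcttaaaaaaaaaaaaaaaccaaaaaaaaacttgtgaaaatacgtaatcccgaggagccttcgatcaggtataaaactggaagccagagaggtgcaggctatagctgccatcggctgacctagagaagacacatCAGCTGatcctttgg
Id2: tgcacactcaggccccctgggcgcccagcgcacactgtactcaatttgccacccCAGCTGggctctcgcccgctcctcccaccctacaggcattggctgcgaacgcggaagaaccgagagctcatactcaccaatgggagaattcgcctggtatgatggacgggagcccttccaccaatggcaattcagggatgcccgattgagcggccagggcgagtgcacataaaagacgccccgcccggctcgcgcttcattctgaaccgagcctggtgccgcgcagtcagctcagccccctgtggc
Ctla4: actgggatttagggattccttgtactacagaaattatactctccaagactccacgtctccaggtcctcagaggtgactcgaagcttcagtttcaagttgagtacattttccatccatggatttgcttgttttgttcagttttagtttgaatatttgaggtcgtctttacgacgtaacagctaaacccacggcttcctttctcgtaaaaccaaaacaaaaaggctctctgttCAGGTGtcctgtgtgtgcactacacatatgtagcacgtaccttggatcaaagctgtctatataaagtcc
Gdpd3: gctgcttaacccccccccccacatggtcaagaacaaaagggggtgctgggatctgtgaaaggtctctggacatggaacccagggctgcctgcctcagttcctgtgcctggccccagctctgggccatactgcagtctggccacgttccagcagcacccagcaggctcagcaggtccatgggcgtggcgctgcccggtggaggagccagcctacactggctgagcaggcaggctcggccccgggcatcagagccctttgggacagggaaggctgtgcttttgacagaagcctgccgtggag
The Ifng window held 2 matches, and the Id2 and Ctla4 windows 1 each. Among genes called at least 2-fold higher, 75 of 221 promoters in the table (33.9%) held either motif. Among genes called at least 2-fold lower the count was 145 of 390 (37.2%), against 2195 of 7506 for all genes tested (29.2%) and 8810 of 27025 for all promoters of the same length (32.6%). These are shares of promoters whose short window held a motif and are given as a description.

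Genes of regulatory T cells were lower in KO Foxp3- cells nearly throughout. Of 22 listed genes 19 had a named probe and passed the filter. Of these, 17 fell, 0 rose and 2 were not called, with a median difference of -2.16 against 0.06 over all genes tested. The same held between the WT groups, where 18 of the 19 were lower in WT Foxp3- cells, against 1506 of all 9137 genes tested. Foxp3 itself, on which the fractions were sorted, was detected on no KO Foxp3- array (4.29 on both) and measured 9.75 and 9.90 in WT Foxp3+ cells, at least 32.8-fold lower (limma adjusted p = 2.51e-06). A fold given as "at least" sets the brighter group against the detection floor of the dimmer one. KO Foxp3+ cells had Foxp3 at 9.06 and 9.74, and WT Foxp3- cells at 4.27 and 4.52. In bulk samples, fewer cells of a type and less RNA per cell cannot be told apart.

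Il2ra (CD25), the high-affinity chain of the IL-2 receptor, showed the largest measured fall of the list. It measured 5.19 and 5.45 in KO Foxp3- cells, against 10.01 and 10.27 in WT Foxp3+ cells (-4.82 ± 0.20, limma adjusted p = 3.16e-06). WT Foxp3- cells had 5.32 and 4.75, so both Foxp3- groups were low. Ctla4, an inhibitory receptor, had 8.40 and 8.68 in KO Foxp3- cells, against 11.75 and 11.63 in WT Foxp3+ cells (-3.15 ± 0.14, limma adjusted p = 4.43e-06). Its level in KO Foxp3- cells was above the 7.89 and 8.02 of WT Foxp3- cells (0.59, limma adjusted p = 0.0232). Ikzf2 (Helios), a zinc finger factor common in thymic regulatory T cells, was detected on no KO Foxp3- array and was at least 10.2-fold lower (limma adjusted p = 2.68e-05). The receptors of the TNF receptor family fell together, with differences of -2.79 for Tnfrsf9 (4-1BB), -2.64 for Tnfrsf4 (OX40) and -1.38 for Tnfrsf18 (GITR). Tnfrsf9 and Tnfrsf4 were also lower than in WT Foxp3- cells, with differences of -1.21 (limma adjusted p = 0.00106) and -0.89 (limma adjusted p = 0.00681). Gpr83, a receptor enriched in regulatory T cells, had 10.38 and 10.34 in KO Foxp3- cells, against 12.96 and 12.75 in WT Foxp3+ cells.

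Several of these genes stood between the WT groups. Nrp1, a surface receptor of thymic regulatory T cells, measured 9.30 and 9.44 in KO Foxp3- cells, against 11.64 and 11.57 in WT Foxp3+ cells (-2.24 ± 0.13, limma adjusted p = 1.73e-05). WT Foxp3- cells had 7.39 and 7.49, so KO Foxp3- cells were 1.93 above them (limma adjusted p = 9.89e-05). Socs2, an inhibitor of cytokine signalling, had 7.94 and 8.14 in KO Foxp3- cells, against 10.70 and 10.64 in WT Foxp3+ cells and 5.42 and 5.17 in WT Foxp3- cells. Nt5e (CD73), which makes adenosine from AMP, had 10.03 and 10.08 in KO Foxp3- cells, against 11.37 and 11.57 in WT Foxp3+ cells and 8.25 and 8.03 in WT Foxp3- cells. Il2rb, the IL-2 receptor chain shared with IL-15, had 7.70 and 7.46 in KO Foxp3- cells, against 8.95 and 8.89 in WT Foxp3+ cells and 6.44 and 6.43 in WT Foxp3- cells. Against WT Foxp3- cells, 8 of the 19 listed genes were higher in KO Foxp3- cells (11.7% of all genes tested) and 5 lower (9.03%), with a median of 0.24. The 2 listed genes not called were Itgae (CD103), with 10.33 and 10.42 in KO Foxp3- cells against 10.84 and 10.82 in WT Foxp3+ cells, and Icos, a costimulatory receptor. Itgae was called lower in the fit to the 4 arrays compared (limma adjusted p = 0.0196), and its level in WT Foxp3- cells was 7.82 and 7.81. Icos was called higher in 10 of the alternative fits, at 0.43 to 0.46 on the log2 scale.

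**Figure D2:**
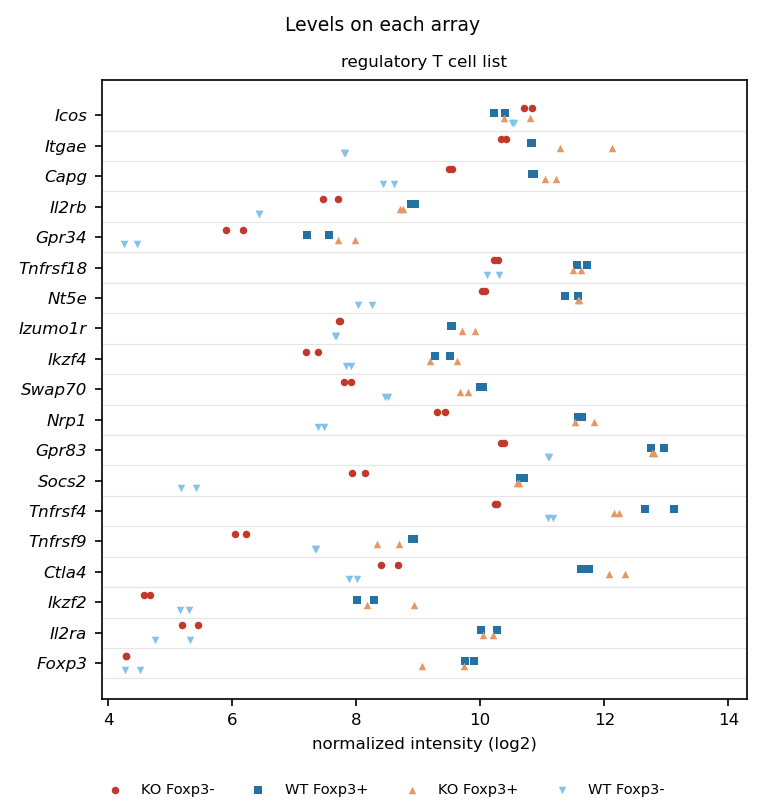
Normalized log2 intensity of the 19 regulatory T cell genes on each of the 8 arrays, 2 points per group, ordered by the difference KO Foxp3- minus WT Foxp3+. Levels of different probes cannot be compared. Foxp3 and Il2ra are low in both Foxp3- groups, whereas Nrp1, Socs2 and Nt5e in KO Foxp3- cells lie between the WT groups.

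Cytokine signalling genes moved both ways, with 5 of 11 lower, 2 higher and 4 not called (median -0.08). The shares over all genes tested were 15.1% lower and 17.4% higher. Socs3, a feedback inhibitor of STAT3 signalling, fell to 9.88 and 9.90 in KO Foxp3- cells, against 11.48 and 11.72 in WT Foxp3+ cells (-1.71 ± 0.14, limma adjusted p = 7.38e-05). Cish, a target of STAT5 (-0.95), Il6ra, a chain of the IL-6 receptor (-0.86), and Stat5a (-0.70) fell too. Il7r, the IL-7 receptor, rose to 12.77 and 12.92 in KO Foxp3- cells, against 11.74 and 11.90 in WT Foxp3+ cells (1.02 ± 0.12, limma adjusted p = 0.000481). The calls of Jak3 (-0.56) and Jak1 (0.52) were not stable. Jak3 was lost in 3 leave-one-out fits and 1 other alternative, and Jak1 in 5 leave-one-out fits and 3 other alternatives. In KO Foxp3- cells Socs3 and Cish stood between the WT groups, above WT Foxp3- cells by 1.58 and 1.68 on the log2 scale.

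NF-kB pathway genes were mostly lower, 8 of 13 with 1 higher and 4 not called (median -0.55). Between the WT groups 10 of the 13 were lower in WT Foxp3- cells too, against 1506 of all 9137 genes tested. The signal inhibitor Nfkbia had 10.51 and 10.56 in KO Foxp3- cells, against 11.51 and 11.39 in WT Foxp3+ cells (-0.92 ± 0.13, limma adjusted p = 0.00154). The subunit gene Rel (-0.61), the adaptor Traf1 (-0.87), the adhesion gene Icam1 (-0.82), the survival gene Bcl2l1 (-0.80) and the co-regulator Bcl3 (-1.22) fell. Rela, the main activating subunit, had 10.93 on both KO Foxp3- arrays, against 10.94 and 10.97 in WT Foxp3+ cells. Against WT Foxp3- cells, 6 of the 13 genes were higher in KO Foxp3- cells (11.7% of all genes tested) and 1 lower (9.03%). Of the 6, Traf1 and Icam1 stood between the WT groups. Rela, Nfkbie and Map3k14 were not called against WT Foxp3+ cells, and Tnfaip3 measured above both WT groups. Traf1 had 9.56 and 9.66 in KO Foxp3- cells, against 10.51 and 10.46 in WT Foxp3+ cells and 8.67 and 8.65 in WT Foxp3- cells. Icam1 had 9.46 and 9.38 in KO Foxp3- cells, against 10.31 and 10.17 in WT Foxp3+ cells and 8.47 and 8.38 in WT Foxp3- cells. Tnfaip3 (A20), a feedback inhibitor of the pathway, went the other way (0.72), a call lost when any 1 array of the 6 outside KO Foxp3+ was left out, with limma adjusted p up to 0.118 (without WT Foxp3+ replicate 2). The calls of Relb and Nfkb2 were also lost in leave-one-out fits, with limma adjusted p = 0.226 for Relb without WT Foxp3+ replicate 2 and 0.0672 for Nfkb2 without WT Foxp3+ replicate 1.

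Effector and innate-like T cell genes were mostly higher in KO Foxp3- cells. Of 18 listed genes 14 passed, and 10 rose, 2 fell and 2 were not called, with a median of 1.13. Il4, the type 2 cytokine, had 8.56 and 8.50 in KO Foxp3- cells, against 4.35 and 4.64 in WT Foxp3+ cells, where it was detected on 1 of 2 arrays (4.03 ± 0.16, limma adjusted p = 2.93e-06). WT Foxp3- cells had 7.48 and 7.64, and KO Foxp3- cells stood 0.97 above them on the log2 scale (limma adjusted p = 0.0048). Ifng, the cytokine of type 1 responses whose promoter is printed above, had 8.22 and 8.33 in KO Foxp3- cells, against 6.05 and 5.80 in WT Foxp3+ cells (2.35 ± 0.13, limma adjusted p = 1.16e-05). WT Foxp3- cells had Ifng at 5.28 and 5.37, so KO Foxp3- cells were highest of the 4 groups. Tbx21 (T-bet), the transcription factor of type 1 cells, had 7.61 and 7.28 in KO Foxp3- cells, against 5.18 and 5.49 in WT Foxp3+ cells (2.11 ± 0.23, limma adjusted p = 0.000409). The chemokine Ccl5 had 11.37 and 11.32 in KO Foxp3- cells, against 9.56 and 9.41 in WT Foxp3+ cells and 6.73 and 6.67 in WT Foxp3- cells.

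Cxcr3, a chemokine receptor of type 1 cells, rose by 0.97 and Slamf6 by 1.29 on the log2 scale; Slamf6 was not called without WT Foxp3+ replicate 1 (limma adjusted p = 0.0519). Il21 was detected in KO Foxp3- cells (5.57 and 5.08) and on no WT Foxp3+ array. WT Foxp3- cells had Il21 at 5.64 and 5.36, and the KO Foxp3- difference from them was not called (-0.17, limma adjusted p = 0.524). The small rise of Pdcd1 (0.39) was lost in 5 leave-one-out fits, with limma adjusted p up to 0.155 without KO Foxp3- replicate 2. Cxcr5, the receptor that guides cells to B cell follicles, was lower than in WT Foxp3+ cells, at 7.96 and 7.92 in KO Foxp3- cells, against 9.38 and 9.67 in WT Foxp3+ cells (-1.58 ± 0.15, limma adjusted p = 0.0002). WT Foxp3- cells had Cxcr5 at 4.59 and 4.84, detected on 1 of 2 arrays, below KO Foxp3- cells. Bcl6, a repressor that directs follicular helper T cells, fell by 0.73. Against WT Foxp3- cells, 11 of the 14 genes were higher in KO Foxp3- cells (11.7% of all genes tested) and 0 lower (9.03%).

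Genes of NK-type receptors and cytotoxic cells, listed after the values were seen, rose in 14 of 20 cases, with 1 lower (Il2rb) and 5 not called (median 2.06). Gzmk, Klri2 and Klrb1b were detected in KO Foxp3- cells only and passed the filter through that group, so passing largely fixed their direction. The list was made from these values, so its count is a description. Klrd1 (CD94), a chain of NK cell receptors, had 10.27 and 10.49 in KO Foxp3- cells, against 6.90 and 6.99 in WT Foxp3+ cells (3.44 ± 0.61, limma adjusted p = 0.00403). Its KO Foxp3+ arrays lay far apart, at 7.13 and 4.74, which widened the SE. WT Foxp3- cells had Klrd1 at 8.88 and 8.84, and the KO Foxp3- difference from them was not called (1.52, limma adjusted p = 0.116). Xcl1, a chemokine of cytotoxic lymphocytes, had 8.48 and 8.52 in KO Foxp3- cells, against 5.78 and 5.00 in WT Foxp3+ cells, and Fasl, a death ligand, had 8.95 and 9.04 in KO Foxp3- cells, against 5.84 and 6.28 in WT Foxp3+ cells. Gzmk, a granzyme, had 7.30 and 7.40 in KO Foxp3- cells and was detected on no array of the other 3 groups, which were at 4.28 to 4.35, so it was at least 6.49-fold higher than in WT Foxp3+ cells (limma adjusted p = 1.94e-06). Prf1 (perforin) and Gzmm were not called. Klrg1, a lectin receptor of NK and effector T cells that was not on the list, went the opposite way, with 4.84 and 4.93 in KO Foxp3- cells, against 9.04 and 9.56 in WT Foxp3+ cells (-4.41 ± 0.16, limma adjusted p = 2.51e-06). It had 8.30 and 8.33 in KO Foxp3+ cells and was detected on no WT Foxp3- array. Klra16, a Ly49-type receptor, was at least 24.5-fold higher than in WT Foxp3+ cells, at 9.12 and 9.41. WT Foxp3- cells had Klra16 at 7.53 and 7.50, and the KO Foxp3- difference from them was not called (1.75, limma adjusted p = 0.0635). Ly49 genes are near-identical copies, and a probe of one may also read another, so the identity of the Klra genes is uncertain. The NK marker Klrb1c (NK1.1) stood at 6.14 and 6.26 in KO Foxp3- cells, against 4.76 and 4.88 in WT Foxp3+ cells and 6.42 and 6.17 in WT Foxp3- cells, while Cd3e and Cd4 were not called. Between the WT groups, 9 of the 20 genes were higher in WT Foxp3- cells and 4 lower, against 1491 and 1506 of all 9137 genes tested. Against WT Foxp3- cells, 13 of the 20 were higher in KO Foxp3- cells (11.7% of all genes tested) and 0 lower (9.03%). Summed over the list, linear intensity was 9370 to 9660 in KO Foxp3- cells, 3390 to 3580 in WT Foxp3+ cells, 2290 to 4150 in KO Foxp3+ cells and 2510 to 2600 in WT Foxp3- cells. The brightest genes weigh most in this sum. The part of NK or NKT cells in these levels was not tested.

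**Figure D3:**
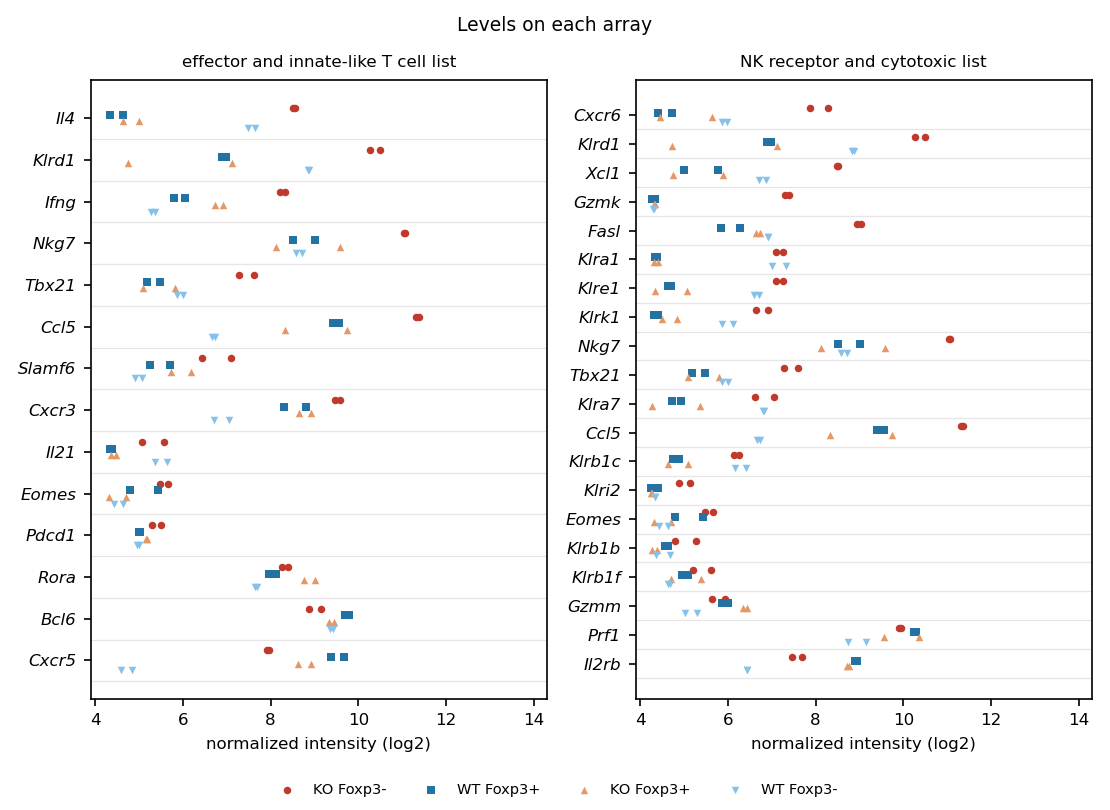
Normalized log2 intensity on each array for the effector and innate-like T cell list (left) and the NK receptor and cytotoxic list (right), 2 points per group. For Ifng, Tbx21, Gzmk and Fasl the KO Foxp3- arrays lie above all others, whereas Il4 and Klrb1c are also raised in WT Foxp3- cells.

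A mixed list of invariant NKT cell genes and type 2 or type 17 cytokine genes, also made after the values were seen, held 8 genes that passed, of which 5 rose and 3 were not called. Those that rose were Il4, Il17re, Tmem176a, Il18r1 and Il12rb2; the IL-18 and IL-12 receptors are best known from type 1 and innate-like cells. Il17re, a receptor chain for IL-17C, had 7.08 and 7.06 in KO Foxp3- cells and was detected on no WT Foxp3+ array, at least 5.36-fold higher. Il18r1, the IL-18 receptor, had 10.99 and 11.10 in KO Foxp3- cells, against 9.55 and 9.60 in WT Foxp3+ cells (1.47, limma adjusted p = 0.000693). Il12rb2, a chain of the IL-12 receptor, had 5.43 and 5.26 in KO Foxp3- cells and was detected on no WT Foxp3+ array, at least 1.62-fold higher (limma adjusted p = 0.000238). The cytokine Il13 was not called.

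Many of the largest falls were genes of myeloid cells rather than of T cells. All 12 neutrophil genes that passed, listed after the values were seen, were lower in KO Foxp3- cells, and 10 were detected on neither KO Foxp3- array. Cxcr2, Retnlg, Elane and Mpo passed the filter only through their detection in WT Foxp3+ cells, so passing largely fixed their direction. The list was made from these values, so its count is a description. S100a8, a calcium-binding protein of neutrophils, had 6.20 and 6.27 in KO Foxp3- cells, against 12.83 and 12.97 in WT Foxp3+ cells (-6.67, limma adjusted p = 2.06e-06). S100a9, its partner, had 4.86 and 4.98 in KO Foxp3- cells, against 11.66 and 11.61 in WT Foxp3+ cells. Lcn2, a granule protein, was at least 28.8-fold lower, Il1b at least 23.1-fold and Retnlg at least 22.5-fold. The summed linear intensity of the 12 genes was 312 to 326 in KO Foxp3- cells, 14100 to 14900 in WT Foxp3+ cells, 1350 to 2060 in KO Foxp3+ cells and 325 to 390 in WT Foxp3- cells. WT Foxp3+ cells thus stood far above the other groups, KO Foxp3+ cells included. S100a8 had 9.93 and 9.41 in KO Foxp3+ cells.

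Macrophage genes, listed after the values were seen like the class II genes, were lower as well, 9 of 9 that passed, and 5 were detected on neither KO Foxp3- array. Slc40a1 (ferroportin), the iron exporter of macrophages, was detected on neither KO Foxp3- array (4.68 and 4.65) and measured 10.08 and 10.30 in WT Foxp3+ cells, at least 42.2-fold lower. Vcam1, an adhesion molecule, had 5.65 and 5.47 in KO Foxp3- cells, against 9.58 and 9.88 in WT Foxp3+ cells, and the complement gene C1qc had 5.05 and 5.18 in KO Foxp3- cells, against 8.33 and 8.55 in WT Foxp3+ cells. The lysozyme probes Lyz1 (-4.83) and Lyz2 (-4.61) fell; these are near-identical copies and each probe may read both, as may be so for Chil3 and its relatives. The summed linear intensity of the 9 genes was 441 to 495 in KO Foxp3- cells, 3900 to 4400 in WT Foxp3+ cells, 3460 to 3990 in KO Foxp3+ cells and 340 to 359 in WT Foxp3- cells, so both Foxp3+ groups were high. Class II antigen presentation genes fell in 6 of 7 cases, among them H2-Ab1 (7.12 and 7.25 in KO Foxp3- cells, against 10.41 and 10.45 in WT Foxp3+ cells) and Cd74 (8.92 and 8.94 in KO Foxp3- cells, against 11.38 and 11.40 in WT Foxp3+ cells). The calls of Ciita and H2-DMb1 were lost in leave-one-out fits, with limma adjusted p = 0.159 for Ciita without WT Foxp3+ replicate 2 and 0.122 for H2-DMb1 without KO Foxp3- replicate 1. Cd79b, a chain of the B cell receptor, fell by 2.71, and Cd79a was not called. Hba-a1, a globin of red cells, had 11.13 and 10.90 in KO Foxp3- cells, against 12.12 and 12.19 in WT Foxp3+ cells and 7.77 and 7.40 in WT Foxp3- cells. Whether these transcripts come from other cells in the sorted samples, and their part in the differences of the T cell genes, was not tested.

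**Figure D4:**
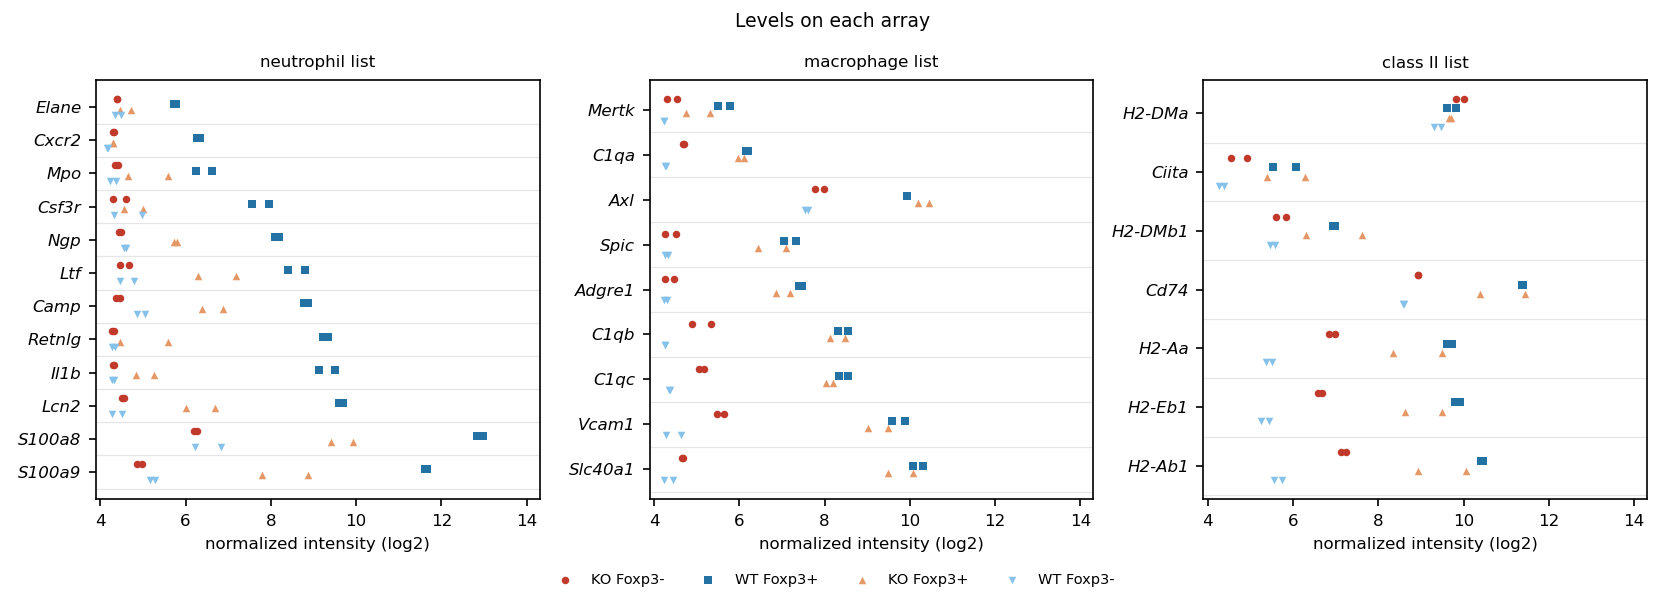
Normalized log2 intensity on each array for the neutrophil, macrophage and class II lists, 2 points per group. WT Foxp3+ arrays are highest for all 12 neutrophil genes, and both Foxp3+ groups are above both Foxp3- groups for all 9 macrophage genes.

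Genes of earlier thymocyte stages were mostly not called. Of 14 that passed, 2 rose, 0 fell and 12 were not called (median 0.35). For comparison, 17.4% of all genes tested rose and 15.1% fell. Themis, which tunes T cell receptor signals during selection, had 7.48 and 7.90 in KO Foxp3- cells, against 5.78 and 5.76 in WT Foxp3+ cells (1.92 ± 0.15, limma adjusted p = 5.93e-05). Satb1, a chromatin organiser of thymocytes, had 13.69 and 13.70 in KO Foxp3- cells, against 12.77 and 12.66 in WT Foxp3+ cells (0.98 ± 0.11, limma adjusted p = 0.000472). Both stood near their WT Foxp3- levels, with differences of -0.32 and -0.19 that were not called. The lineage factors Gata3, Bcl11b and Zbtb7b were not called. Rag1, Ptcra and Dntt, which mark immature thymocytes, were at 4.47 to 5.18 in KO Foxp3- cells and at 4.27 to 4.89 in WT Foxp3+ cells, near the detection floor.

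T cell receptor activation genes were mostly not called, 10 of 12, with 2 lower and 0 higher. Over all genes tested 15.1% were called lower and 17.4% higher, so these counts do not set the list apart. Egr1 had 11.93 and 11.81 in KO Foxp3- cells, against 11.87 and 11.74 in WT Foxp3+ cells, and Cd5, a marker of receptor signal strength, had 10.77 and 10.48 in KO Foxp3- cells, against 10.64 and 10.59 in WT Foxp3+ cells. Egr2 (-0.41) and Irf4 (-0.48) fell, but both calls were lost in leave-one-out fits, with limma adjusted p = 0.134 for Egr2 without KO Foxp3- replicate 1 and 0.133 for Irf4 without WT Foxp3+ replicate 2. Among maturation genes, 1 of 8 was higher, 1 lower and 6 not called, including Klf2 and Ccr7, which guide mature cells. These counts do not set that list apart from all genes tested either. Plac8 had 7.12 and 7.14 in KO Foxp3- cells, against 10.12 and 10.10 in WT Foxp3+ cells (-2.98 ± 0.34, limma adjusted p = 0.000468), and was also below WT Foxp3- cells, at 8.45 and 8.21.

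Cell cycle genes were lower in 6 of 12 cases and higher in 0 (median -0.49). Tyms, the thymidylate synthase, had 7.20 and 7.22 in KO Foxp3- cells, against 7.83 and 7.99 in WT Foxp3+ cells and 8.50 and 8.71 in WT Foxp3- cells. Plk1, a mitotic kinase, fell by 0.76. The calls of Birc5, Rrm2, Mcm5 and Mcm6 were lost in leave-one-out fits, with the highest limma adjusted p at 0.127 for Birc5, 0.108 for Rrm2, 0.204 for Mcm5 and 0.0504 for Mcm6. Top2a, a marker of cycling cells, was not called here (6.56 and 6.55 in KO Foxp3- cells, against 7.03 and 6.77 in WT Foxp3+ cells), but WT Foxp3- cells had 8.77 and 8.85. Against WT Foxp3- cells, 10 of the 12 genes were lower in KO Foxp3- cells (9.03% of all genes tested).

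The remaining groups gave a comparison that shares no array with this one, KO Foxp3+ against WT Foxp3- cells, in which 4778 of 13526 probes were called (35.3%), or 2957 and 2853 without WT Foxp3- replicate 1 and replicate 2. Genotype is tested the same way round in both comparisons and the sorted fraction the opposite way. Across probes, which are not independent replicates, the differences of both comparisons correlated at Pearson r = -0.4648 and Spearman rho = -0.3135. Probes called opposite ways numbered 1792, which is 41.41% of the KO Foxp3- against WT Foxp3+ list and 37.51% of the other. Probes called the same way numbered 414, 9.568% and 8.665% of the lists. By gene, 141 were at least 4-fold lower in KO Foxp3- cells. Of these, 115 were called higher in KO Foxp3+ than in WT Foxp3- cells (81.6%, against 18.8% of all genes tested). Another 8 were called lower there (5.67%, against 17.2% of all genes tested). Of the 56 genes at least 4-fold higher, 38 were called lower in that comparison (67.9%, against 17.2% of all genes tested). The 7 called higher there made up 12.5%, against 18.8% of all genes tested. Most of the largest differences were called in the direction of the sorted fraction. The shares called in the direction of genotype lay below those of all genes tested.

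**Figure D5:**
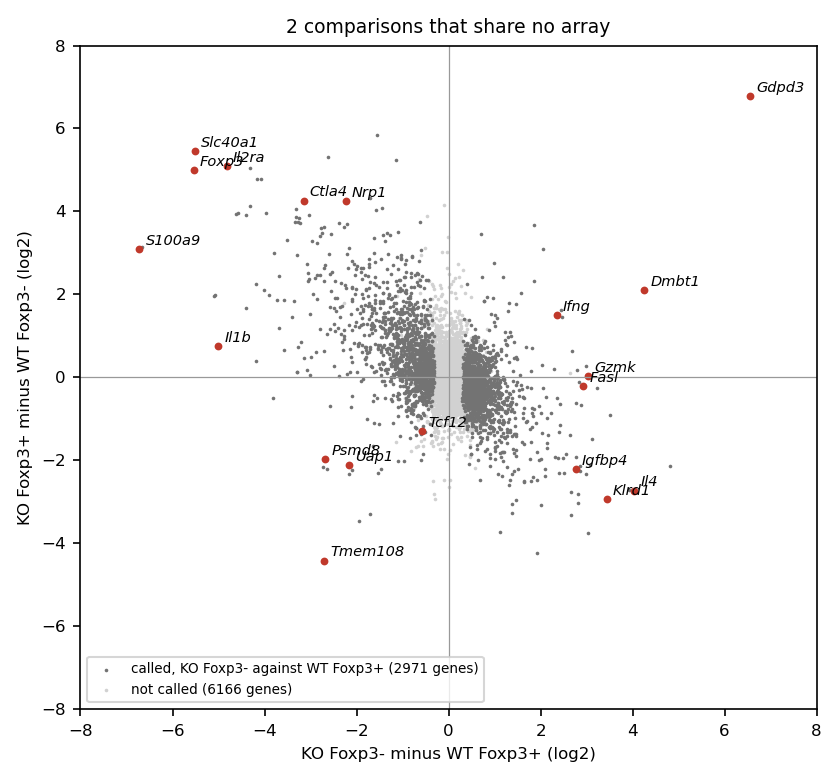
Differences of 9137 genes on the log2 scale, KO Foxp3- minus WT Foxp3+ across and KO Foxp3+ minus WT Foxp3- up, with genes called in the first comparison in dark grey and the genes written out in red. Genes that follow the sorted fraction, such as Foxp3 and Klrd1, lie on the falling diagonal, and genes that follow genotype, such as Gdpd3 and Tmem108, on the rising one. Differences of genes below detection in a group are fitted values, not bounds.

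Among the genes called the same way in both comparisons, 8 higher and 8 lower ones were taken, those whose weaker of the paired differences was largest, a choice made on these values. Gdpd3, a glycerophosphodiesterase, had 12.70 and 12.62 in KO Foxp3- cells, against 6.13 and 6.09 in WT Foxp3+ cells (6.55 ± 0.11). KO Foxp3+ cells had 13.32 and 13.21, against 6.40 and 6.57 in WT Foxp3- cells. Its change was the largest on the higher side, and no value of one genotype came near the other. Dmbt1 was detected in both KO groups and on no WT array, at 8.58 and 8.54 in KO Foxp3- cells. Cpne4 showed the same pattern. Aim2, a sensor of DNA in the cytosol, had 7.55 and 7.86 in KO Foxp3- cells, against 5.92 and 5.80 in WT Foxp3+ cells, and 8.41 and 8.45 in KO Foxp3+ cells, against 4.78 and 4.77 in WT Foxp3- cells. Golm1, Fbxo27, Ccl5 and Ifng completed the higher set. A call the same way in both comparisons need not mean a genotype difference within each fraction. Ccl5 had 9.74 and 8.32 in KO Foxp3+ cells, against 9.56 and 9.41 in WT Foxp3+ cells (-0.45, limma adjusted p = 0.54). Golm1 was not called between the Foxp3+ groups either (0.46, limma adjusted p = 0.0518). On the lower side, Tmem108 was detected in neither KO group, with 7.47 and 7.10 in WT Foxp3+ cells and 8.79 and 8.71 in WT Foxp3- cells. Psmd8, a proteasome subunit, had 7.73 and 7.72 in KO Foxp3- cells, against 10.48 and 10.32 in WT Foxp3+ cells, and 8.26 and 8.81 in KO Foxp3+ cells, against 10.58 and 10.46 in WT Foxp3- cells. Mns1, Abhd14b, Atp2c1, Uap1, Apobr and Pclaf, a PCNA-binding protein of cycling cells, were the others. The floxed alleles, ER-Cre and any other difference between the mouse lines go with genotype and cannot be told apart.

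Some genes set KO Foxp3- cells apart from all 3 other groups. In 27 genes both KO Foxp3- arrays were at least 2-fold above each of the 6 other arrays, and in 9 at least 2-fold below. These sets were chosen on these values and are given with no test of their own. In the higher set Gzmk, Lrrc75b, Sostdc1, Esm1 and Ryr1 passed the filter only through KO Foxp3- cells, so passing largely fixed their direction. The higher set held Gzmk, Lrrc75b, Sostdc1, Dapl1, Fasl, Cxcr6, Il17re, Xcl1, Ccl4, Nkg7, Ifng, Tbx21 and Ccl5, of which Cxcr6 is a chemokine receptor of resident and NKT cells. Cxcr6 had 7.88 and 8.28 in KO Foxp3- cells, against 4.73 and 4.40 in WT Foxp3+ cells, 5.63 and 4.45 in KO Foxp3+ cells and 5.99 and 5.88 in WT Foxp3- cells. Sostdc1, a secreted antagonist of BMP and Wnt signals, had 7.37 and 7.60 in KO Foxp3- cells and was detected on no WT Foxp3+ array, at least 7.13-fold higher. The lower set held Ddx5, Eif4b, Rec8, Stk10, Rbm6, Foxn3, Tnfrsf9, Sppl2a and Plac8. Ddx5, an RNA helicase, had 7.07 and 7.23 in KO Foxp3- cells, against 9.76 and 9.55 in WT Foxp3+ cells and 9.18 and 8.93 in WT Foxp3- cells.

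The overall size of the difference was 0.63 on the log2 scale, as a root mean square over probes in which each square was replaced by the product of 2 differences between separate arrays. It was 0.668 for KO Foxp3+ against WT Foxp3- cells. It was 0.462 for KO Foxp3- against WT Foxp3- cells (2862 probes called, 21.2%) and 0.68 for WT Foxp3- against WT Foxp3+ cells (4224 called, 31.2%). Without any 1 of the arrays compared, these counts fell to 1115 to 1410 and to 2371 to 2671. Without background correction the value for KO Foxp3- against WT Foxp3+ cells was 0.374. To see how far KO Foxp3- cells were from WT Foxp3+ cells in the genes that separate the WT fractions, probes at least 2-fold apart were chosen on 1 replicate and measured on the other. Of 791 probes higher in WT Foxp3+ cells by replicate 1, 59.3% were at least 2-fold lower in KO Foxp3- cells on replicate 2, and 87.9% were so in WT Foxp3- cells. With the replicates exchanged, the shares were 54.4% and 81% of 858 probes. The median differences from WT Foxp3+ cells were -1.17 and -1.13 in KO Foxp3- cells, against -1.68 and -1.56 in WT Foxp3- cells. Of 400 and 472 probes lower in WT Foxp3+ cells, 44.5% and 38.1% were at least 2-fold higher in KO Foxp3- cells, against 74.8% and 63.3% in WT Foxp3- cells. Because the probes were chosen for their difference between WT Foxp3- and WT Foxp3+ cells, a smaller share in any group unlike WT Foxp3- cells follows largely from the choice. The shares also use the same WT Foxp3+ array on both sides and are given as a description, with no test.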

How the data were processed

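RNA of sorted mouse thymocytes was amplified, labelled with biotin and read on an Illumina bead array, 8 arrays in 4 groups of 2, grouped by their titles. The authors deposited a linear intensity per probe and array, not normalized, with a detection p-value beside each, and a table of processed log2 values for 14942 probes. GenomeStudio 2011.1 is named per the submitters' processing notes; the settings it ran with are not given in the sources used. Quantile normalization of the log2 intensities rebuilt the authors' deposited log2 values to within 0.000675, so these hold levels (each column's median 7.579) and were used as an alternative. The intensities were background-corrected from the detection p-values and quantile-normalized with neqc (offset 16) in limma 3.58.1 under R 4.3.3. The filter required detection at p under 0.05 on 2 or more arrays and left 13526 of 25697 probes. limma's lmFit and eBayes then estimated the 4 group means from the 8 arrays together (4 residual and 3.99 prior degrees of freedom), two-sided with Benjamini-Hochberg adjustment over all probes, and called at an adjusted p under 0.05. An exact permutation test of 2 against 2 arrays cannot go below p = 0.333 and was not used. The platform annotation named 12702 of the kept probes, each with 1 symbol; the brightest probe stood for each of 9137 genes, and 50 genes had probes called in both directions. The text names Tcf12 and Foxp3, the 12 largest measured rises and falls, the 6 largest bounded ones each way, and members of the lists. Tcf3 was to be named and was not analysed here. Folds written as at least N apply to probes undetected on both arrays of the lower group, whose level was raised to the lowest detected signal of each array before the fold was taken. The groups and the lists were chosen with earlier results of these data known, and the neutrophil, macrophage, class II, NK, and invariant NKT with type 2 or type 17 lists after these values were seen. The fit was tested on simulated data. Alternatives covered background, scaling, filter, arrays, weights, variance trend and replicate block.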

Additional observations from a re-analysis of the deposited data

How the results depend on the processing

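For KO Foxp3- against WT Foxp3+, 4327 probes were called, and 3773 to 5100 under the alternatives run that kept all 4 arrays compared. Without 1 of the 8 arrays the counts were 2577 to 5100 (1262 to 2674 higher and 1315 to 2426 lower); the lowest came without KO Foxp3- replicate 1 (2577), WT Foxp3+ replicate 1 (2650), WT Foxp3+ replicate 2 (2711) and KO Foxp3- replicate 2 (2796), fits with fewer arrays in which the lone array is assumed to vary like the others. The highest came without KO Foxp3+ arrays, whose replicates differed most; leaving out both was added after seeing the data. The corresponding leave-one-out ranges were 2853 to 4743 for KO Foxp3+ against WT Foxp3- (4778), 1115 to 3599 for KO Foxp3- against WT Foxp3- (2862) and 2371 to 4912 for WT Foxp3- against WT Foxp3+ (4224). Correlations of deviations between replicates of the same number ran from -0.03 to 0.1 across pairs of groups. They were 0 between KO Foxp3- and WT Foxp3+, -0.02 between the KO fractions and -0.03 between the WT fractions. Low values cannot show that the samples were unpaired. The replicate block gave 4085 calls. Of the 214 genes named or listed, 17 lost a call under at least 1 alternative, 16 of them in leave-one-out fits, and 0 reversed. Sox13 was lost only without background correction (limma adjusted p = 0.0642). Regulatory T cell genes called lower numbered 17 to 18, effector genes called higher 9 to 10, NF-kB genes called lower 6 to 8, NK-type genes called higher 13 to 15, neutrophil genes called lower 12 and macrophage genes called lower 9. Median scaling moved the share of higher calls from 46.7% to 29.5% for KO Foxp3+ against WT Foxp3- and from 48.7% to 36.4% for KO Foxp3- against WT Foxp3-; cyclic loess gave 43.1% against 52.1% here, and the cause was not tested. The root mean square difference (0.63) was 0.374 without background correction, which compresses dim probes, 0.627 with median scaling and 0.631 with cyclic loess. The mean share of probes higher in WT Foxp3+ cells that were at least 2-fold lower in KO Foxp3- cells (56.9%) was 53.4% without background correction. For probes lower in WT Foxp3+ cells (41.3%) it was 46.4% without background correction and 34.2% with median scaling. Signal near background limits genes below the lowest detected signal (4.63 to 4.83 by array), whose order has no meaning.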

Other observations

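Rpl29, a ribosomal protein gene with many near-identical copies, was read by 2 kept probes and falls outside the naming rule, so it was chosen after its values were seen. One probe measured 5.78 and 5.95 in KO Foxp3- cells, against 11.22 and 11.12 in WT Foxp3+ cells (-5.31 on the log2 scale). The second, brighter probe gave -1.63. The first probe was also low in KO Foxp3+ cells, with a KO Foxp3+ minus WT Foxp3- difference of -5.90. Which copies each probe reads is uncertain.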
